A study of Arabidopsis thaliana with 20 samples.

Results

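ATG8D (AT2G05630), ATG8E (AT2G45170) and ATG8H (AT3G06420) are 3 of the ATG8 genes of Arabidopsis thaliana. Their transcript levels were followed in rosette leaves over a day, in WT plants and in Atss3, a mutant in a starch synthase. The genes were picked by name from the platform annotation of the array, which gave 1 probe set (a group of short oligonucleotides designed for 1 transcript) to each, so the members are 3 of 13356 genes named singly by the annotation and 3 of 22810 probe sets. ATG8D and ATG8E lie on chromosome 2 and ATG8H on chromosome 3. No probe set listed with several genes named an ATG8 gene. The members were chosen with earlier results of these data known.

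ATG8 is a small protein that resembles ubiquitin and is attached to a lipid, phosphatidylethanolamine, on the growing membrane of the autophagosome, the vesicle that carries cytoplasm to the vacuole for breakdown. The protease ATG4 trims the end of most ATG8 proteins, ATG7 and ATG3 pass them to the lipid with the help of the ATG12-ATG5-ATG16 complex, and receptors such as NBR1 dock their cargo on the attached ATG8. In leaves, autophagy is known for recycling proteins and organelles when carbon runs short, as in long darkness, and ATG8 transcripts are widely used as readouts of starvation. In Arabidopsis, ATG8H and its close relative ATG8I end at the glycine that is joined to the lipid, so they do not need trimming by ATG4, while ATG8D and ATG8E belong to the larger group that does.

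All plants were 6 weeks old and had a day of 8 h light and a night of 16 h. WT and Atss3 leaves (numbers 5 to 8) were harvested 1 h and 4 h after lights on and, in darkness, at 8.5, 12 and 16 h, which is 0.5, 4 and 8 h after lights off. The labels name neither the accession nor the allele, and nothing else distinguishes the genotypes in them. Each of the 20 arrays measured pooled leaves of 16 plants, with 1 array per genotype and time in each of 2 runs that were grown, randomized and harvested separately. The mean difference between the 2 growths was taken out in the main fit. P-values of that fit therefore reflect the spread left between pools of plants, with 2 arrays in each of the 10 groups.

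Signals are the deposited MAS5 intensities, which the authors had scaled to a common mean on every array. That scaling hides any change in the total amount of RNA. In whole leaves, fewer cells of a type and less RNA per cell cannot be told apart. The 5 WT arrays of run 1 stood apart from the other 15 in the GAPDH control probe sets, where signal at the 3' end is set against signal at the 5' end (log2 ratio), a common sign of RNA quality. The ratio was -0.13 ± 0.11 on them, against 0.30 ± 0.09 in WT of run 2, 0.38 ± 0.03 in Atss3 of run 1 and 0.43 ± 0.20 in Atss3 of run 2 (SD, n = 5 each). These 5 arrays thus had the least 3' signal relative to 5' signal. They stand apart, but were not shown to hold poorer RNA than the other 15. Results that change without those arrays, or with the ratio as a covariate in the fit, are given with those values. Without them WT has 1 array per time, whose spread is taken from the Atss3 arrays. Of 7 leaf mesophyll markers 3 were measured (RCA, LHCB4.2 and PSAE-1), with summed signals of 33199 to 73035 in WT and 32414 to 75305 in Atss3. Of 4 root markers 2 were measured, EXPA7 and PYK10, with sums of 157 to 740. The root hair gene EXPA7 was dim on 20 of 20 arrays, but PYK10 was dim on only 1 of 20. None of the markers of flower, seed or senescent leaf had a named probe set, and neither had SS3, the gene mutated in Atss3, so that gene could not serve as a check of the labels.

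Levels of all 3 genes were higher in the night than in the light in both genotypes, but they came up at different times. ATG8E was already up at 4 h, within the light period, and ATG8D rose mainly between 4 and 8.5 h. ATG8H had its highest mean at 16 h in both genotypes. In WT the means were highest at 8.5 h for ATG8E and at 12 h for ATG8D. In Atss3 the means of all 3 genes were highest at 16 h. ATG8D was nearly level there from 8.5 to 16 h (mean log2 9.92, 9.95 and 9.99). The genotype by time interaction called no member. The order in which the genes came up was read from each gene's own time course and was not tested between genes. Atss3 did not differ from WT for any of the 3 genes after adjustment over all probe sets. Statements on change rest on limma with a mean for each group and the run as a block, fitted to log2 signal. P-values were adjusted by Benjamini-Hochberg over the 15470 probe sets that passed the filter on dim signal, and all 3 members passed it.

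ATG8D encodes an ATG8 protein of the group that is trimmed before use. In WT its signal in run 1 and run 2 was 192 and 296 at 1 h, 331 and 477 at 4 h, 773 and 1099.8 at 8.5 h, 1068 and 1355 at 12 h, and 699 and 1070.1 at 16 h. In Atss3 it was 339 and 426 at 1 h, 331 and 352 at 4 h, 889 and 1058 at 8.5 h, 912 and 1077 at 12 h, and 962 and 1080.1 at 16 h. Every array taken in darkness lay above every array taken in the light, in both genotypes. The lowest dark value, 699 in WT at 16 h, stood clear of the highest light value, 477 in WT at 4 h.

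ATG8E also encodes an ATG8 protein that is trimmed before use. Its WT signal in run 1 and run 2 was 94.4 and 149 at 1 h, 477 and 866 at 4 h, 935 and 1628 at 8.5 h, 585 and 1026 at 12 h, and 722 and 1373 at 16 h. The Atss3 values were 116 and 168.5 at 1 h, 418 and 474 at 4 h, 713 and 1471 at 8.5 h, 652 and 977 at 12 h, and 1433 and 1629.7 at 16 h. The 4 arrays at 1 h were the lowest by a wide margin, and no array of any later time overlapped them. The 4 h arrays were already well up. In WT they overlapped those of the night only across runs. Within each WT run the 4 h value was below every night value, at 477 against 585 or more in run 1 and 866 against 1026 or more in run 2. From 8.5 to 12 h the signal was lower in 4 of 4 pairs of arrays, and from 12 to 16 h it was higher in 4 of 4.

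ATG8H encodes an ATG8 protein that needs no trimming. The WT signal in run 1 and run 2 was 145 and 189 at 1 h, 151 and 225 at 4 h, 166.5 and 286.5 at 8.5 h, 232 and 311 at 12 h, and 326.5 and 328 at 16 h. Atss3 gave 127 and 172 at 1 h, 109 and 144 at 4 h, 77.6 and 218 at 8.5 h, 247 and 247 at 12 h, and 398 and 464 at 16 h. The arrays at 8.5 h overlapped those in the light, while every array at 12 and 16 h was above every array in the light, if narrowly (232 against 225). Within both WT runs and run 2 of Atss3 the 8.5 h value was above both light values. In run 1 of Atss3 it was below them. The value of 77.6 in Atss3 at 8.5 h of run 1 lay under its array's 40th percentile of signal, the limit used here for a dim probe set, and was the only dim value of the 3 genes.

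**Figure D1:**
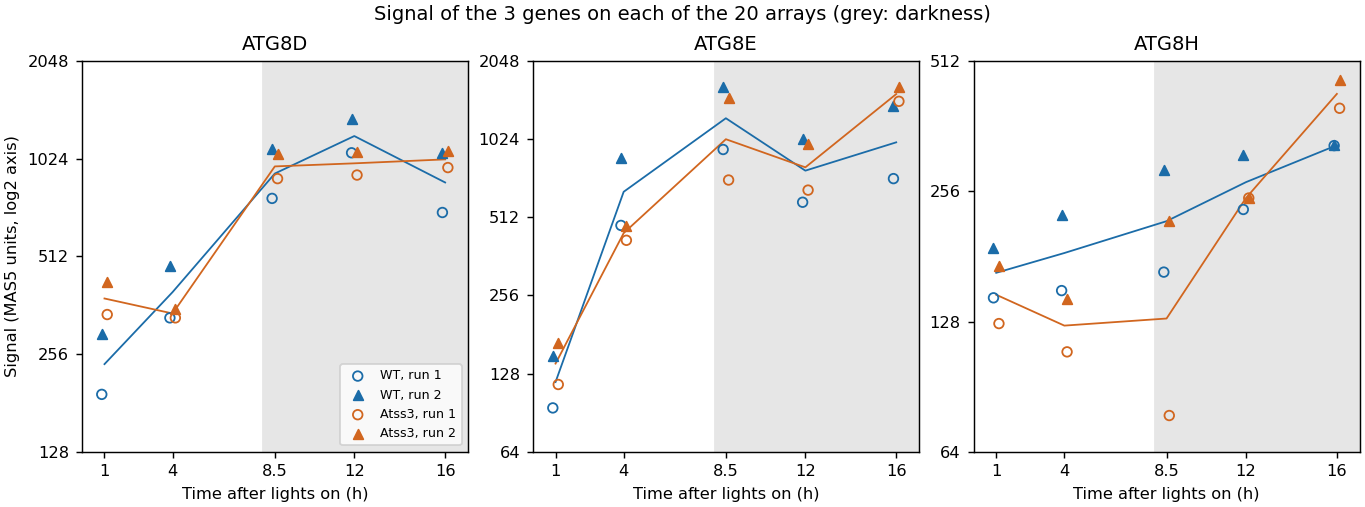
Signal of ATG8D, ATG8E and ATG8H (MAS5 units on a log2 axis) against hours after lights on, 1 point per array, open circles for run 1 and filled triangles for run 2, lines through the mean of log2 signal of each genotype, darkness in grey. ATG8E climbs from 94.4 to 168.5 at 1 h to at least 418 at 4 h, ATG8D climbs mainly between 4 and 8.5 h, and ATG8H is highest at 16 h, at 326.5 to 464.

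Over the whole day the time course passed the test for ATG8D and ATG8E in WT and for all 3 genes in Atss3. In WT 2 of 3 members were called by the moderated F test over the 5 times, where 44.2% of all probe sets were, and in Atss3 3 of 3, where 48.0% were. The highest mean was 5.05-fold above the lowest for ATG8D in WT (adjusted p = 1.38e-06) and 2.99-fold in Atss3 (adjusted p = 6.33e-06). For ATG8E the range was 10.4-fold in WT (adjusted p = 8.45e-07) and 10.9-fold in Atss3 (adjusted p = 8.55e-07). These ATG8E ranges exceeded those of 97.4% and 97.2% of probe sets. ATG8H covered 1.97-fold in WT, which missed the threshold (adjusted p = 0.0582), and 3.43-fold in Atss3 (adjusted p = 0.00083). The WT call for ATG8H turned on the settings: it was made with 16 added to each signal before log2 (adjusted p = 0.0416) and without either Atss3 array at 8.5 h (adjusted p = 0.00769).

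The contrast of night with light set the mean of 12 and 16 h against the mean of 1 and 4 h, a contrast in which the lack of light and the hour cannot be told apart. All 3 members rose in WT, where 19.7% of all probe sets were called higher, and all 3 in Atss3, where 21.6% were. ATG8D was 3.31-fold higher at night in WT (log2 1.73, SE 0.11, adjusted p = 2.9e-07) and 2.79-fold in Atss3 (log2 1.48, SE 0.11, adjusted p = 1.03e-06). ATG8E was 3.18-fold higher in WT (log2 1.67, SE 0.15, adjusted p = 3.65e-06) and 4.43-fold in Atss3 (log2 2.15, SE 0.15, adjusted p = 4.19e-07). Within each run the direction was the same for both genes and both genotypes.

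ATG8H had the smallest night rise of the 3 in WT, 1.70-fold (log2 0.76, SE 0.20, adjusted p = 0.0104), and rose 2.40-fold in Atss3 (log2 1.26, SE 0.20, adjusted p = 0.00035). The WT rise of ATG8H was not called without the 5 WT arrays of run 1 (log2 0.63, adjusted p = 0.244), without the WT array at 16 h of run 1 alone (log2 0.63, adjusted p = 0.0543), or with no block for the run (adjusted p = 0.0606). ATG8D (log2 1.68, adjusted p = 0.000755) and ATG8E (log2 1.72, adjusted p = 0.00367) kept their WT calls without those 5 arrays.

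Taking the day step by step shows where each gene came up. Consecutive steps share the arrays of the time between them, so a low array there enlarges one step and shrinks its neighbour. Between 1 and 4 h, wholly in the light, ATG8E rose 5.41-fold in WT (log2 2.44, SE 0.21, adjusted p = 1.75e-05) and 3.18-fold in Atss3 (log2 1.67, SE 0.21, adjusted p = 0.000173). It was the largest ATG8E step up in both WT runs and in run 1 of Atss3, while in run 2 of Atss3 the step from 4 to 8.5 h was larger (1.63 against 1.49). ATG8D rose 1.67-fold in WT (log2 0.74, SE 0.16, adjusted p = 0.0083), while its Atss3 change was -0.15 (adjusted p = 0.548). The WT call for ATG8D was lost without the WT array of run 1 at 1 h (adjusted p = 0.0724), without that of run 2 at 4 h (adjusted p = 0.0842), without the 5 WT arrays of run 1 (adjusted p = 0.118) and with no block (adjusted p = 0.117). ATG8H changed by 0.15 in WT and -0.24 in Atss3 on the log2 scale, neither called. That made 2 of 3 members higher in WT, against 9.46% of all probe sets, and 1 of 3 in Atss3, against 13.3%.

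Between 4 and 8.5 h, a step that spans 4 h of light and 0.5 h of darkness, ATG8D made its largest rise in each genotype and run. The ATG8D rise was 2.32-fold in WT (log2 1.21, SE 0.16, adjusted p = 0.000198) and 2.84-fold in Atss3 (log2 1.51, SE 0.16, adjusted p = 5.59e-05). By 8.5 h ATG8D had covered 81.1% and 86.3% of its range in the WT runs and 92.6% and 98.1% in the Atss3 runs. ATG8E rose again, 1.92-fold in WT (log2 0.94, SE 0.21, adjusted p = 0.00653) and 2.30-fold in Atss3 (log2 1.20, SE 0.21, adjusted p = 0.00164). The WT call for ATG8E was lost without the WT array of run 1 at 4 h (adjusted p = 0.0628), without that of run 2 at 8.5 h (adjusted p = 0.0583) and without the 5 WT arrays of run 1 (adjusted p = 0.125). With no block neither ATG8E call was made (adjusted p = 0.186 in WT and 0.108 in Atss3). ATG8H moved by 0.24 in WT and 0.05 in Atss3 (log2), neither called. The members called higher were 2 of 3 in WT, against 10.9% of all probe sets, and 2 of 3 in Atss3, against 8.65%.

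ATG8E stood at different points of its own range by 4 h in the genotypes, at 70.6% and 73.5% in the WT runs and at 50.9% and 45.6% in the Atss3 runs. The genotype difference behind these shares was not called, as given below. ATG8H had covered 4.7% and 31.5% of its range by 4 h in the WT runs and 16.9% and 75.3% by 8.5 h. In Atss3 it stood at 20.7% and 0.0% by 4 h and at 0.0% and 35.4% by 8.5 h, the first of these the dim array. Its runs thus differed in when it came up.

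Within the night, from 8.5 to 12 h, no member was called in either genotype by limma, where 12.2% of all probe sets were called in WT and 5.16% in Atss3. At an unadjusted p under 0.05, ATG8E was lower in WT (log2 -0.67, adjusted p = 0.0578), ATG8D was higher in WT (log2 0.38, adjusted p = 0.146) and ATG8H was higher in Atss3 (log2 0.93, adjusted p = 0.0833). Of all 15470 probe sets, 4245 passed that limit in WT and 2998 in Atss3, in either direction. The ATG8H value hung on the dim array. It was 0.36 without Atss3 run 1 at 8.5 h (adjusted p = 0.549) and 1.49, past the threshold, without run 2 (adjusted p = 0.00996). The lower ATG8E value at 12 h in WT passed the threshold when either Atss3 array at 4 h (adjusted p = 0.0453) or at 16 h (adjusted p = 0.0442) was left out, with the value itself at -0.67 in each case.

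From 12 to 16 h ATG8E rose 1.91-fold in Atss3 (log2 0.94, SE 0.21, adjusted p = 0.041), the only member of 3 called there, where 1.15% of all probe sets were called higher. That call was narrow: of 20 fits that each left out 1 array, 13 did not make it (adjusted p up to 0.335, without Atss3 run 1 at 16 h), and it was also lost without the 5 WT arrays of run 1 (adjusted p = 0.117). Leaving out either array of a group outside a comparison gives the same result for it. Counts over the 20 fits, here and below, are thus not counts of separate checks. ATG8H gave 0.80 in Atss3 (log2, adjusted p = 0.171, unadjusted p under 0.05). In WT no member was called by limma, against 0.297% of all probe sets in either direction, and ATG8D was lower at an unadjusted p under 0.05 (log2 -0.48, adjusted p = 0.393).

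From 8.5 to 16 h, which spans both steps within the sampled hours of darkness, ATG8H rose 3.31-fold in Atss3 (log2 1.73, SE 0.28, adjusted p = 0.00168). In WT the value was 0.58 (log2, SE 0.28, adjusted p = 0.195). Of 3 members 1 was called higher in Atss3, where 8.71% of all probe sets were, and none in WT, where 8.78% were. Without the dim array the Atss3 rise was 1.16 (adjusted p = 0.0157). ATG8E gave 0.58 over the same interval in Atss3 (adjusted p = 0.08), and was called only without Atss3 run 2 at 16 h (log2 0.84, adjusted p = 0.0459). This interval was added after the values had been seen. It also called ATG8I (log2 0.60, adjusted p = 0.0292) and ATG8C (log2 0.59, adjusted p = 0.041) higher in Atss3, from among the other 6 ATG8 genes described below. ATG8H peaked at 16 h in 4 of 4 combinations of genotype and run.

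Between 16 h and 1 h, an interval that holds the unsampled later night and 1 h of light, all 3 genes fell in both genotypes. The members called lower were 3 of 3 in WT, against 14.1% of all probe sets, and 3 of 3 in Atss3, against 17.8%. ATG8E had the largest fall, by 3.07 on the log2 scale in WT (SE 0.21, adjusted p = 9.15e-07) and by 3.45 in Atss3 (SE 0.21, adjusted p = 3.66e-07). ATG8D fell by 1.86 in WT (SE 0.16, adjusted p = 5.76e-06) and by 1.42 in Atss3 (SE 0.16, adjusted p = 4e-05). ATG8H fell by 0.98 in WT (SE 0.28, adjusted p = 0.0238) and by 1.54 in Atss3 (SE 0.28, adjusted p = 0.00134). The WT fall of ATG8H was not called without the WT array of run 1 at 16 h (log2 -0.72, adjusted p = 0.208) or without either WT array at 1 h (adjusted p = 0.0716 and 0.0987). It was also lost without the 5 WT arrays of run 1 (log2 -0.79, adjusted p = 0.345), with no block (adjusted p = 0.111), with no filter on dim signal (adjusted p = 0.0541) and after quantile normalization (log2 -0.88, adjusted p = 0.0645).

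**Figure D2:**
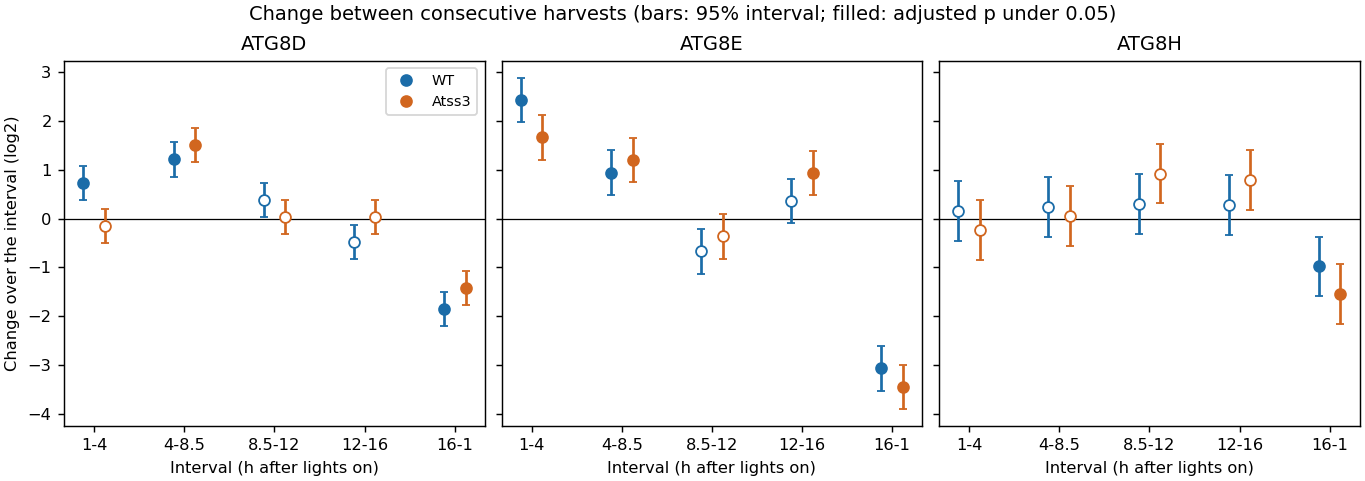
Change of each gene between consecutive harvests (log2, 95% interval of the limma fit), WT in blue and Atss3 in orange, filled points for an adjusted p under 0.05. ATG8E has its largest fitted rise from 1 to 4 h (log2 2.44 in WT and 1.67 in Atss3), ATG8D from 4 to 8.5 h (1.21 and 1.51), ATG8H has no single step called until it falls from 16 to 1 h.

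The series set Atss3 against WT to see how leaf transcripts respond to a change in starch synthesis. Over the 5 times together no member was called by limma, against 0.0194% of all probe sets, and none had an unadjusted p under 0.05. The difference, Atss3 minus WT, was 0.10 for ATG8D (95% interval -0.06 to 0.25, adjusted p = 0.572), 0.02 for ATG8E (-0.18 to 0.22, adjusted p = 0.944) and -0.24 for ATG8H (-0.52 to 0.04, adjusted p = 0.427) on the log2 scale. The sign for ATG8D (log2 -0.06) and for ATG8E (log2 -0.13) was the opposite without the 5 WT arrays of run 1.

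At single times no member was called by limma either, against 0.110% of all probe sets at 1 h, 0.0129% at 4 h, 0.0129% at 8.5 h, 0.0194% at 12 h and 0.0259% at 16 h. At an unadjusted p under 0.05, 4 values stood out. Of all 15470 probe sets, 1424 passed that limit at 1 h, 590 at 4 h, 1812 at 8.5 h, 1623 at 12 h and 438 at 16 h. ATG8D was 1.59-fold higher in Atss3 at 1 h (log2 0.67, 95% interval 0.32 to 1.02, adjusted p = 0.211). Run 1 gave 0.82 and run 2 gave 0.53. ATG8E at 4 h was lower in Atss3 (log2 -0.53, interval -0.99 to -0.07, adjusted p = 0.999). Run 1 gave -0.19 and run 2 gave -0.87. At 16 h ATG8E was higher (log2 0.62, interval 0.16 to 1.08, adjusted p = 1.0). Its values were 0.99 and 0.25 in the runs. The ATG8E values thus differed between runs by more than their fitted size.

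ATG8H was lower in Atss3 at 8.5 h (log2 -0.75, interval -1.36 to -0.13, adjusted p = 0.352), with -1.10 in run 1, which holds the dim array, and -0.39 in run 2. Without that array the difference was -0.18. The moderated F test of genotype by time interaction called no member, against 0.00646% of all probe sets. Its adjusted p was 0.558 for ATG8D, 0.678 for ATG8E and 0.77 for ATG8H. Its unadjusted p was under 0.05 for the first 2, and for 1099 of all 15470 probe sets. The night minus light contrast differed between Atss3 and WT by -0.25 for ATG8D (adjusted p = 0.956), 0.48 for ATG8E (adjusted p = 0.932) and 0.50 for ATG8H (adjusted p = 0.932).

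**Figure D3:**
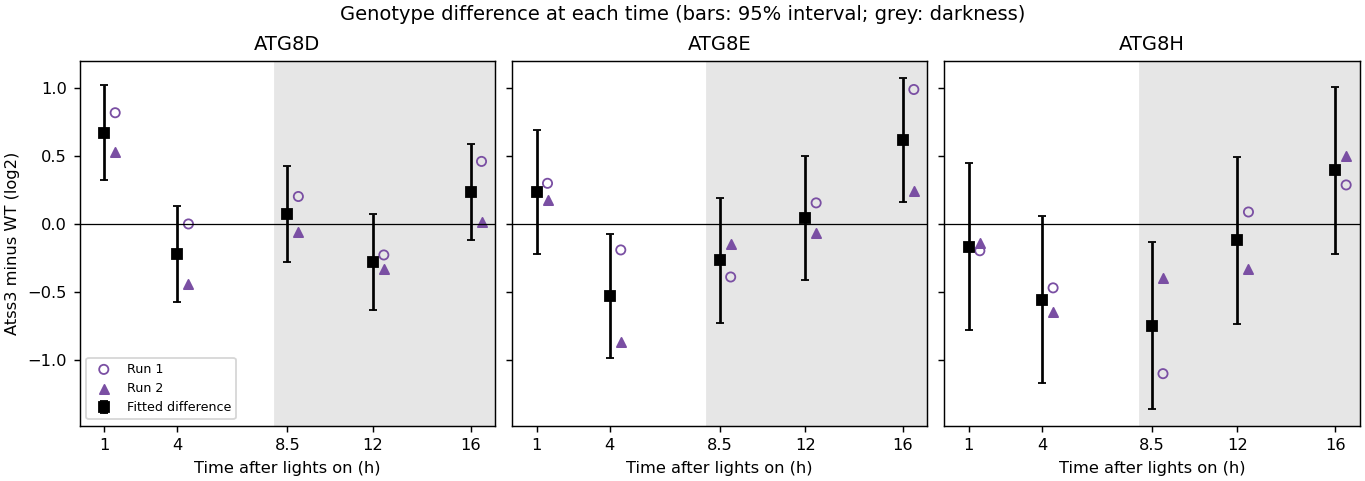
Difference between Atss3 and WT (log2) at each time, squares with the 95% interval of the fit and, beside them, the value of each run, darkness in grey. For ATG8D the difference is 0.67 at 1 h, for ATG8E it runs from -0.53 at 4 h to 0.62 at 16 h, and for ATG8H it is -0.75 at 8.5 h with runs at -1.10 and -0.39. No point passed the adjusted threshold.

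The family has 6 further genes with a probe set each: ATG8A, ATG8B, ATG8C, ATG8F, ATG8G and ATG8I. RefSeq lists ATG8I (AT3G15580) under the symbol APG8H, so it is kept apart here from ATG8H by locus. In night minus light 4 of these 6 rose in WT and 4 of 6 in Atss3, ATG8A, ATG8C, ATG8F and ATG8I in both, where 19.7% and 21.6% of all probe sets were called higher. Their median was 0.44 in WT and 0.46 in Atss3, beside 0.05 and 0.04 over all probe sets tested. The called rises in WT ran from 0.43 for ATG8A to 0.57 for ATG8F (log2, adjusted p = 0.0341 and 0.012). ATG8C (0.48, adjusted p = 0.0105) and ATG8I (0.45, adjusted p = 0.0107) lay between. These rises were small beside those of ATG8D and ATG8E. The interval of ATG8H in WT (0.328 to 1.196) overlapped that of ATG8F (0.238 to 0.906). Rises were not tested between genes, and the members were chosen with earlier results known, which can by itself favour larger values. ATG8B gave 0.20 and 0.13 and ATG8G 0.30 and 0.44 in WT and Atss3, none called.

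The WT count for these 6 genes fell to 0 without the 5 WT arrays of run 1 and to 0 with no block, while the Atss3 count was 4 and 1. Leaving out 1 array gave 1 to 4 genes in WT and 2 to 4 in Atss3, and the ATG8F call in Atss3 was lost in 14 of 20 such fits. ATG8I kept its Atss3 call in all 20 of them. No step between consecutive times was called for them except ATG8F from 1 to 4 h in WT (log2 0.82, adjusted p = 0.0218) and the fall from 16 to 1 h. That fall was called for ATG8C (-0.64 and -0.89) and ATG8F (-0.87 and -0.99) in WT and Atss3, and for ATG8I (-0.69, adjusted p = 0.00841) in Atss3. Over the 20 arrays, log2 signals of ATG8D and ATG8E correlated at r = 0.85, ATG8D and ATG8H at 0.60, and ATG8E and ATG8H at 0.59. ATG8H went most closely with ATG8I, the other family member that needs no trimming, at r = 0.89. That closeness was not particular to this pair, as ATG8I also went with ATG8A at 0.89 and with ATG8C at 0.88. These points share arrays, scaling, run and time of day.

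Other autophagy genes were read from lists drawn from general knowledge, of which the platform names only a part. Of 9 genes that process and attach ATG8, 3 were measured and none was called by limma in night minus light. Of all probe sets, 19.7% were called higher in WT and 21.6% in Atss3, so no call among 3 genes says little. ATG16, of the complex that helps attach ATG8, gave 0.31 in WT (adjusted p = 0.113, the only one of the 3 with an unadjusted p under 0.05) and 0.22 in Atss3. ATG3, the enzyme that passes ATG8 to the lipid, gave 0.10 and 0.19. Their median was 0.10 in WT and 0.19 in Atss3.

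Of 23 further core genes 7 were measured, 3 of which rose at night in WT and 1 in Atss3, against 19.7% and 21.6% of all probe sets, with medians of 0.34 and 0.14. ATG1T, a short form of the ATG1 kinase that starts autophagosome formation, rose by 0.82 in WT (adjusted p = 0.000619) and 0.68 in Atss3 (adjusted p = 0.00202). ATG1C, a full-length ATG1 kinase, had 2 probe sets, at 0.54 and 0.48 in WT (adjusted p = 0.0403 and 0.0306) and 0.09 and 0.23 in Atss3, where neither was called. ATG101, a subunit of the ATG1 complex, rose by 0.35 in WT (adjusted p = 0.0359) and gave 0.22 in Atss3 (adjusted p = 0.167). The WT count was 0 of 7 without the 5 WT arrays of run 1, and 1 of 7, ATG1T, with no block, with quantile normalization and with no filter. It was 1 to 3 when 1 array was left out.

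Among 14 cargo receptors and regulators 3 were measured, with medians of 0.03 in WT and -0.07 in Atss3. CFS1, which acts in delivery of autophagosomes to the vacuole, rose by 0.37 in WT (adjusted p = 0.0372) and gave 0.26 in Atss3 (adjusted p = 0.128); the WT call was lost without those 5 arrays and in 7 of 20 fits that left out 1 array. Of 7 vacuolar proteases 4 had a probe set and 2 were bright enough to test. BetaVPE, a vacuolar processing enzyme best known from seeds, went the other way from the ATG8 genes and fell at night by 2.33 in WT (adjusted p = 4.54e-07) and by 2.55 in Atss3 (adjusted p = 2.06e-07). Of 15 genes known from darkness or sugar starvation 4 were measured. AKINBETA1, a subunit of the energy-sensing kinase SnRK1, rose by 1.91 in WT (adjusted p = 4.64e-06) and by 1.68 in Atss3 (adjusted p = 1.22e-05). IVD, an enzyme of leucine breakdown, fell by 0.43 in Atss3 (adjusted p = 0.0254) and gave -0.07 in WT. The IVD call was lost in 6 of 20 fits that left out 1 array, each an Atss3 array. The lists' medians were -1.04 and -1.31 for the proteases and 0.18 and -0.14 for the starvation genes in WT and Atss3. The protease medians are midpoints of only 2 genes. GammaVPE, the other protease tested, gave 0.25 in WT and -0.08 in Atss3, neither called by limma, so the fall is that of betaVPE alone.

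**Figure D4:**
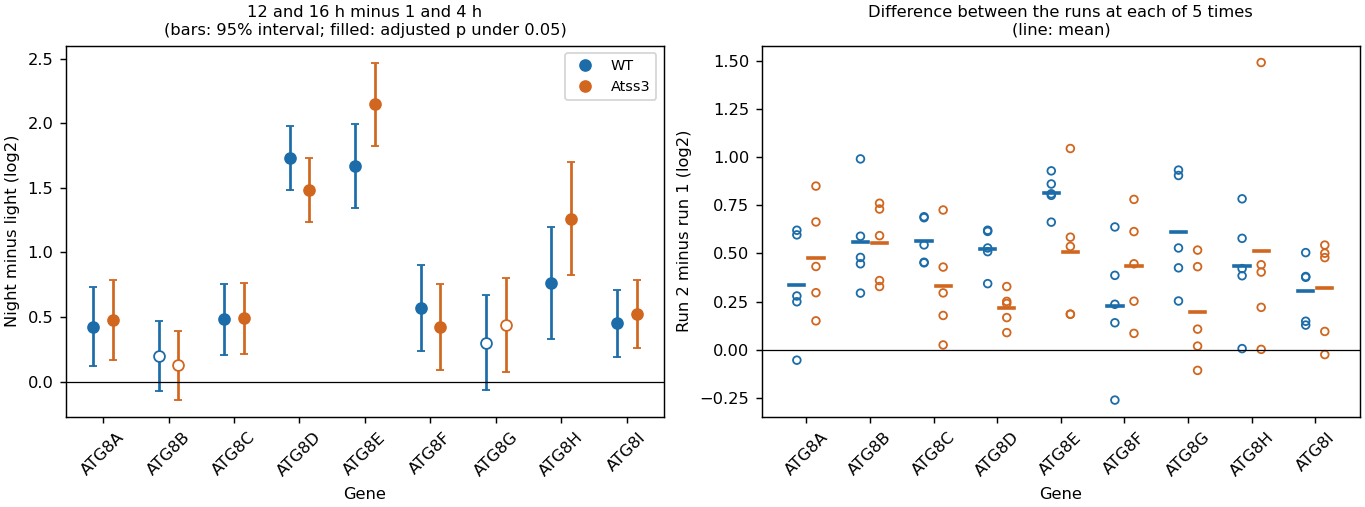
Left, night minus light (log2, 95% interval) for the 9 ATG8 genes, WT in blue and Atss3 in orange, filled for an adjusted p under 0.05. Right, run 2 minus run 1 (log2) at each of the 5 times, 1 circle per genotype and time, bars at the mean. The largest night values are those of ATG8D and ATG8E (1.48 to 2.15), followed by ATG8H (0.76 and 1.26), and 86 of the 90 circles on the right are above 0.

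The runs differed for the whole family. This comparison was chosen after the values were seen. ATG8D was 1.29-fold higher in run 2 (log2 0.37, SE 0.07, adjusted p = 0.00791), ATG8E 1.58-fold (log2 0.66, SE 0.09, adjusted p = 0.00315) and ATG8H 1.39-fold (log2 0.47, SE 0.13, adjusted p = 0.0258). Each gene was above its run 1 value at all 5 times in both genotypes. For ATG8H the runs were all but equal in WT at 16 h (log2 0.006) and in Atss3 at 12 h (log2 0.002). Of the members 3 of 3 were called higher in run 2, against 8.97% of all probe sets, and the other 6 ATG8 genes were called higher as well, at 0.31 to 0.56. Of those 6, none was called with Atss3 arrays alone, in a fit that called 3 of 15470 probe sets in either direction. With the GAPDH ratio as a covariate 1 was called, ATG8B, in a fit that called 85. The main fit called 2668, so calls were lost over the whole array and not for these genes in particular.

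In WT the GAPDH ratio was also higher in run 2 at each time, but least so at 16 h (0.051 in run 1 and 0.146 in run 2). At 16 h the WT run difference was 0.61 for ATG8D and 0.006 for ATG8H. For ATG8E it was 0.93, the largest of its WT values. Without the 5 WT arrays of run 1, only Atss3 compares the runs. ATG8D was then at 0.21 (adjusted p = 0.272), ATG8E at 0.51 (adjusted p = 0.15) and ATG8H at 0.51 (adjusted p = 0.245), none called, in a fit that called 3 probe sets in all against 2668. With the GAPDH ratio as a covariate the values were 0.29, 0.54 and 0.29 (adjusted p = 0.137, 0.0671 and 0.339), in a fit that called 85 probe sets in all. The call for ATG8H was also lost without either WT array at 4 h (adjusted p = 0.0539) or at 8.5 h (adjusted p = 0.06). In Atss3 run 2 was higher in 5 of 5 pairs for each member, though for ATG8H by only 0.002 at 12 h. The GAPDH ratio differed within those pairs too, most at 8.5 h (0.36 in run 1 and 0.71 in run 2), where the run difference was also the largest for ATG8E (1.04) and ATG8H (1.49). For ATG8D the run difference was largest at 1 h (0.33), where the ratio was lower in run 2 (0.432 in run 1 and 0.326 in run 2). The ratio was also lower in run 2 at 12 h (0.385 and 0.183), and higher at 4 and 16 h. Whether RNA quality lies behind the run difference was not tested.

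The probe sets most like each member were taken by Pearson correlation of log2 signal over the 20 arrays, among 6933 probe sets that name 1 gene and are above the dim limit on at least 15 arrays. ATG8D was closest to AT4G36970 (r = 0.98), AT4G19390 (0.97), AT3G50210 (0.95), AT5G62900 (0.95) and AT1G25275 (0.95). ATG8E was closest to AT1G21830 (r = 0.96), AT4G22360 (0.96), AT4G05150 (0.95), AT5G40190 (0.95) and AT4G17486 (0.95). The lists of ATG8D and ATG8E have no gene in common. ATG8H had looser neighbours, AT4G28830 (r = 0.91), AT3G18215 (0.91), AT5G58575 (0.90), AT2G43540 (0.90) and ATG8I (0.89).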

How the data were processed

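RNA from 20 leaf samples was measured on 1-colour arrays. Each probe set has 1 deposited intensity on a linear scale, made by the authors with MAS5 per the submitters' processing notes (version not given in the sources used here). Their trimmed mean was 500.0 to 500.1 on every array, so they were used as deposited. Signals under 1 were raised to 1 and log2 was taken. After 64 controls were left out, 22746 probe sets remained, and 15470 were kept that on 2 or more arrays were brighter than the 40th percentile. Names came from the platform annotation and RefSeq, and 13436 of 13513 probe sets with 1 gene matched by gene identifier. Where a gene had several probe sets, list counts used the brightest. No sequence or coordinate was analysed here.

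The model in limma 3.58.1 (R 4.3.3) had 10 group means plus a block term for run, leaving 9 residual degrees of freedom (3.45 prior). It was tested on simulated data. P-values are 2-sided. The replicate number in each sample label was taken as the run, which is an inference. Deviations of same-run samples correlated above 0.1 in 41 of 45 pairs of groups (median 0.20, range -0.11 to 0.44). Tables were handled with Python 3.11.15 and pandas 2.3.3, and figures drawn with matplotlib 3.10.9.

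Members, lists and comparisons were chosen with earlier results of these data known. Named genes are the members, from each list up to 3 members called in night minus light in WT by smallest p (2 where none was called), and the 5 probe sets most like each member. Further family and list members were named after their values were seen. Precision is limited by there being 2 arrays a group. Alternatives covered the block, the constant added before log2, dim signals, 2 further normalizations, the filter, a GAPDH covariate, 1 genotype alone, the 5 WT arrays of run 1 and each array in turn.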

Additional observations from a re-analysis of the deposited data

Results flagged for a closer look

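For 9 pairs of times, the difference between Atss3 and WT had one sign in both runs at one time and the opposite sign in both runs at the other. None of these changes passed the limma test after Benjamini-Hochberg adjustment over all probe sets, and many pairs of times were looked at. For ATG8D the genotype difference at 12 h minus that at 1 h was -0.95 (SE 0.23, adjusted p = 0.209), and 16 h minus 12 h gave 0.52 (SE 0.23, adjusted p = 0.828). For ATG8E, 4 h minus 1 h gave -0.77 (SE 0.30, adjusted p = 0.749), 8.5 h minus 1 h gave -0.51 (SE 0.30, adjusted p = 0.629), 16 h minus 4 h gave 1.15 (SE 0.30, adjusted p = 1.0) and 16 h minus 8.5 h gave 0.89 (SE 0.30, adjusted p = 0.658). For ATG8H, 16 h minus 1 h gave 0.56 (SE 0.40, adjusted p = 0.995), 16 h minus 4 h gave 0.95 (SE 0.40, adjusted p = 1.0) and 16 h minus 8.5 h gave 1.14 (SE 0.40, adjusted p = 0.696). The last of these includes the dim array of Atss3 at 8.5 h. Differences that share a time share arrays and are not separate observations.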

How the results depend on the processing

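Over 72 results and 31 settings, 2039 of 2139 alternative values kept their direction and their side of the threshold, and 48 results did so under every setting run. The settings share arrays, and many fits that left out 1 array coincide, so these values are not separate checks. With no replicate block, ATG8D from 1 to 4 h in WT (log2 0.74, adjusted p = 0.117), ATG8E from 4 to 8.5 h in WT (0.94, 0.186) and in Atss3 (1.20, 0.108), ATG8E from 12 to 16 h in Atss3 (0.94, 0.438), ATG8H from 16 to 1 h in WT (-0.98, 0.111) and ATG8H night minus light in WT (0.76, 0.0606) were no longer called, and no other call changed. The wider spread between runs enters that fit by construction.

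Without the 5 WT arrays of run 1, the lost calls were run 2 minus run 1 for ATG8D (0.21), ATG8E (0.51) and ATG8H (0.51), also with only Atss3 arrays, ATG8D from 1 to 4 h in WT (0.69), ATG8E from 4 to 8.5 h in WT (0.91) and from 12 to 16 h in Atss3 (0.94), and ATG8H from 16 to 1 h (-0.79) and night minus light (0.63) in WT. Uncalled genotype differences changed sign for ATG8D over the day (-0.06) and at 8.5 h (-0.07) and for ATG8E over the day (-0.13) and at 12 h (-0.11). The GAPDH covariate changed the same 4 signs (-0.01, -0.08, -0.14 and -0.05) and that of ATG8H from 4 to 8.5 h in Atss3 (0.00, just under 0), lost run 2 minus run 1 for all 3 genes (0.29, 0.54 and 0.29), and called ATG8E from 8.5 to 12 h in WT (-0.68) and the WT time course of ATG8H (range 0.95). Centring on medians changed the sign of ATG8E over the day (-0.05) and at 12 h (-0.06), of ATG8D at 8.5 h (-0.04) and of ATG8D from 8.5 to 12 h in Atss3 (0.00, just under 0). Quantile normalization turned the last to -0.01, called ATG8E from 8.5 to 12 h in WT (-0.70) and lost ATG8H from 16 to 1 h in WT (-0.88) and between runs (0.44), the latter also lost with no filter (0.47) and only WT arrays (0.43).

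The WT time course of ATG8H was called with 16 added (0.91), 64 added (0.76), signals raised to the 40th percentile (0.98) and only WT arrays (0.98). ATG8E from 8.5 to 12 h in WT was called with 64 added (-0.63), raised signals (-0.67) and only WT arrays (-0.67). With no filter, ATG8E from 12 to 16 h in Atss3 (0.94) and ATG8H from 16 to 1 h in WT (-0.98) were lost, and with only Atss3 arrays the former (0.94).

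Leaving out each array in turn changed a call or a sign for the following. In WT, ATG8D ranged from 0.60 to 0.88 for 1 to 4 h and from -0.23 to 0.04 for 8.5 to 16 h. ATG8E ranged from 0.83 to 1.05 for 4 to 8.5 h and from -0.75 to -0.59 for 8.5 to 12 h. ATG8H ranged from -1.24 to -0.72 for 16 to 1 h, from 0.63 to 0.89 for night minus light and from 0.72 to 1.24 for its time course. In Atss3, ATG8D ranged from -0.31 to 0.00 for 1 to 4 h, -0.04 to 0.10 for 8.5 to 12 h, -0.07 to 0.15 for 12 to 16 h and -0.04 to 0.18 for 8.5 to 16 h. ATG8E ranged from 0.67 to 1.20 for 12 to 16 h and from 0.31 to 0.84 for 8.5 to 16 h, and ATG8H from -0.51 to 0.62 for 4 to 8.5 h and 0.36 to 1.49 for 8.5 to 12 h. For Atss3 minus WT, ATG8E ranged from -0.03 to 0.07 over the day and -0.04 to 0.13 at 12 h, ATG8D from 0.00 to 0.15 at 8.5 h and ATG8H from -0.38 to 0.14 at 12 h. For run 2 minus run 1, ATG8H ranged from 0.36 to 0.53. Where no cause is given, the cause was not tested. With 2 arrays a group, 1 array can decide a step.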
